A study of Mus musculus with 38 samples.

Results

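Neural progenitor cell (NPC) cultures of the mouse forebrain were compared between 2 series of RNA-seq libraries that carried the same 4 lentiviral guide RNAs. The libraries were chosen by the number in their titles, 4 in a first series and 4 in a second, which makes 8 of the 38 samples of the study. Within each series, 1 culture received a guide against lacZ, a bacterial gene absent from the mouse genome, and served as control, and the other cultures received guides against exon 3 (g3), exon 4 (g4) or exon 13 (g13) of Trim28, the co-repressor that silences endogenous retroviruses. Libraries are named by guide and title number. The first series holds lacZ_842, g3_845, g4_848 and g13_851, and the second series holds lacZ_867, g3_870, g4_873 and g13_876. Values are given in the order lacZ, g3, g4, g13 throughout, the first series before the second. The mice carried a Cas9-GFP knock-in at Rosa26 that is active throughout the body, and all 8 cultures were started from the forebrain at embryonic day 13.5. They were grown as a monolayer with EGF and bFGF, each at 20 ng/ml, and sorted for the nuclear RFP reporter of the vector 10 days after transduction. No source used here says what the numbers of a series share. A different litter, culture, passage, day of harvest or library batch cannot be told apart, and p-values measure only the spread between these samples.

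NPC monolayers are kept dividing by EGF and FGF, which act through the ERK pathway to drive cells from G1 into S phase. Several transcript programmes of such cells respond to the state of the medium. Hypoxia-inducible factors turn on glycolytic enzymes, glucose and lactate transporters and collagen hydroxylases when oxygen is short. SREBP factors turn on the enzymes of cholesterol synthesis when sterols run low. ATF4, the transcription factor of the integrated stress response, turns on amino acid transporters and the synthesis of serine and asparagine when amino acids are short or translation is blocked. Immediate early genes such as Fos are switched on within minutes by growth factors, depolarisation or dissociation. In RNA pooled from many cells, fewer cells in a state and less RNA per cell cannot be told apart.

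Between 9996885 (g13_876) and 19922767 (lacZ_867) reads per library were assigned to genes. Trim28 itself, the targeted gene, had a counts-per-million (CPM) value of 157 in lacZ_842 and 204 in lacZ_867, and between 37.0 and 73.7 CPM in the 6 knockout cultures. Its difference between the series missed the threshold (log2 fold change 0.26, SE 0.096, adjusted p = 0.0722, edgeR's quasi-likelihood test). The cultures expressed the progenitor genes Sox2, Nes and Fabp7 in every library. Emx1 and Dlx2, which mark dorsal and ventral progenitors, had 3 and 2 reads over all 8 libraries. The microglial genes Cx3cr1 and Tyrobp and the endothelial gene Cdh5 had no read. Other markers of these cells had reads in every library, with 34 to 96 for the microglial gene Csf1r and 7 to 29 for the endothelial gene Pecam1. Hox genes, markers of the hindbrain and spinal cord, had too few reads for any of 39 to be tested. Mitochondrial transcripts took 8.79 ± 0.80% of reads in the first series and 6.90 ± 0.57% in the second series (SD, n = 4 each). This difference reached p = 0.0286 in an exact two-sided permutation test that did not use the guide pairs. That is the smallest value that unpaired groupings of 4 against 4 libraries allow. It became 0.1 after Benjamini-Hochberg adjustment over the 7 library values compared. The part of mitochondrial reads in the differences below was not tested.

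One library stood apart from its series. The root mean square log2 difference between g3_845 and the other libraries of the first series was 0.618 to 0.796, against 0.379 to 0.570 among those 3. Within the second series it was 0.314 to 0.530. Between the series it was 0.542 to 1.04 with g3_845 and 0.542 to 0.859 without it. Each count of a leading gene list is therefore also given without this library, an alternative chosen after the data were seen. Its partner g3_870 is then the only library with its guide, so every fit without g3_845 had genotype (control or knockout) in place of guide, which changes 2 choices together.

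The series differed in many genes, in both directions. Of 15627 genes tested, 2030 were higher and 1837 lower in the second series, with the guide as a block, where a call needed an adjusted p below 0.05 as well as a size beyond 0.5 on the log2 scale (edgeR's quasi-likelihood test, Benjamini-Hochberg adjustment). These are 13% and 11.8% of all genes tested, 24.7% together. They are the background for every count of a gene list from this fit below. The median of all genes was -0.003 on the log2 scale. All 4 guide pairs pointed the same way for 2016 of the 2030 genes called higher and for 1806 of the 1837 called lower. The 4 libraries of the second series all lay above those of the first series for 2445 genes (15.6%), and all lay below them for 2435 (15.6%). Without the lacZ pair 1611 of 15660 genes tested were called, 860 higher and 751 lower. Without the g13 pair 2309 were called, and without g3_845, with genotype in place of guide, 3484. A gene list count from such a fit is to be read beside the total of that fit. Genotype in place of guide with all 8 libraries gave 3556.

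The genes with the largest differences that separated the series were led by metabolic and secreted proteins. Slc16a3, the monocarboxylate transporter that exports lactate from glycolytic cells (chromosome 11, 120948480 to 120960868, GRCm38), stood at 0.645, 0.644, 0.783 and 0.747 CPM in the first series. In the second series it stood at 22.7, 24.5, 18.1 and 25.3 CPM. The choice of these genes required every library of the second series to lie above, or every one below, the whole first series. The log2 fold change of Slc16a3 was 4.99 (SE 0.191, adjusted p = 0.00015, edgeR's quasi-likelihood test). P4ha2, a subunit of the prolyl hydroxylase that modifies collagen (chromosome 11, 54100095 to 54131665), was at 0.538, 0.0537, 1.31 and 1.09 CPM in the first series and at 11.9, 16.0, 9.87 and 10.1 CPM in the second series (4.06, SE 0.545). Ankrd37, a target of hypoxia-inducible factor, followed at 3.99, and Areg, a ligand of the EGF receptor, at 3.88. The others among the 15 largest were Liph, Loxl2, Tnfsf18, Apln, Tm4sf1, Akap12, Golga7b, F2rl1, Ptprn, Anxa2 and Hk2, with log2 fold changes from 3.78 (Liph) to 2.98 (Hk2). Loxl2 crosslinks collagen and Apln is a peptide ligand of the apelin receptor. Akap12, a scaffold of protein kinase A, was at 348 CPM in lacZ_867 against 98.6 to 124 CPM in the other cultures of its series, and at 6.93 to 30.5 CPM in the first series.

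In the other direction the largest difference was in Cox6a2, the muscle form of a cytochrome c oxidase subunit (chromosome 7, 128205435 to 128206387). It had 664 reads in the first series, or 11.9, 5.15, 8.74 and 12.2 CPM, and 3 reads in the second series, with none in g3_870 and g13_876. The ratio of the read rates was 211 (exact 95% interval 71.9 to 1026, counting error only). Fbln5, an elastic fibre protein, was at 21.3, 2.90, 17.6 and 14.8 CPM and at 0.398, 0.213, 0.287 and 0.0962 CPM (-5.62, SE 0.365). Nupr1, a small stress-induced chromatin protein, was at 43.3, 7.52, 36.6 and 29.7 CPM and at 1.54, 1.44, 0.861 and 0.962 CPM (-4.38, SE 0.453). For both, g3_845 was the lowest library of its series. It lay above the whole second series because only genes that separate the series were named here. Fosb, an AP-1 factor, was at 217, 423, 82.2 and 126 CPM and at 7.21, 11.2, 8.61 and 28.4 CPM (-3.90, SE 0.525), with g3_845 the highest of its series. Apoe, the lipoprotein of astrocytes, was at 327, 1010, 81.6 and 159 CPM and at 62.9, 27.5, 24.7 and 42.7 CPM (-2.71, SE 0.557). The others were Cyb5r2, Tmem82, Slc25a34, Slc7a3, Rnase1, Chac1, Angptl4, Ptp4a1, Luzp2 and Ppfibp2, between -4.21 (Cyb5r2) and -2.71 (Ppfibp2). Of these 30 genes, only Apoe and Rnase1 lost their call when the lacZ pair was left out (adjusted p = 0.0575 and 0.0641, edgeR's quasi-likelihood test), and none lost it when another pair or g3_845 was left out.

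**Figure D1:**
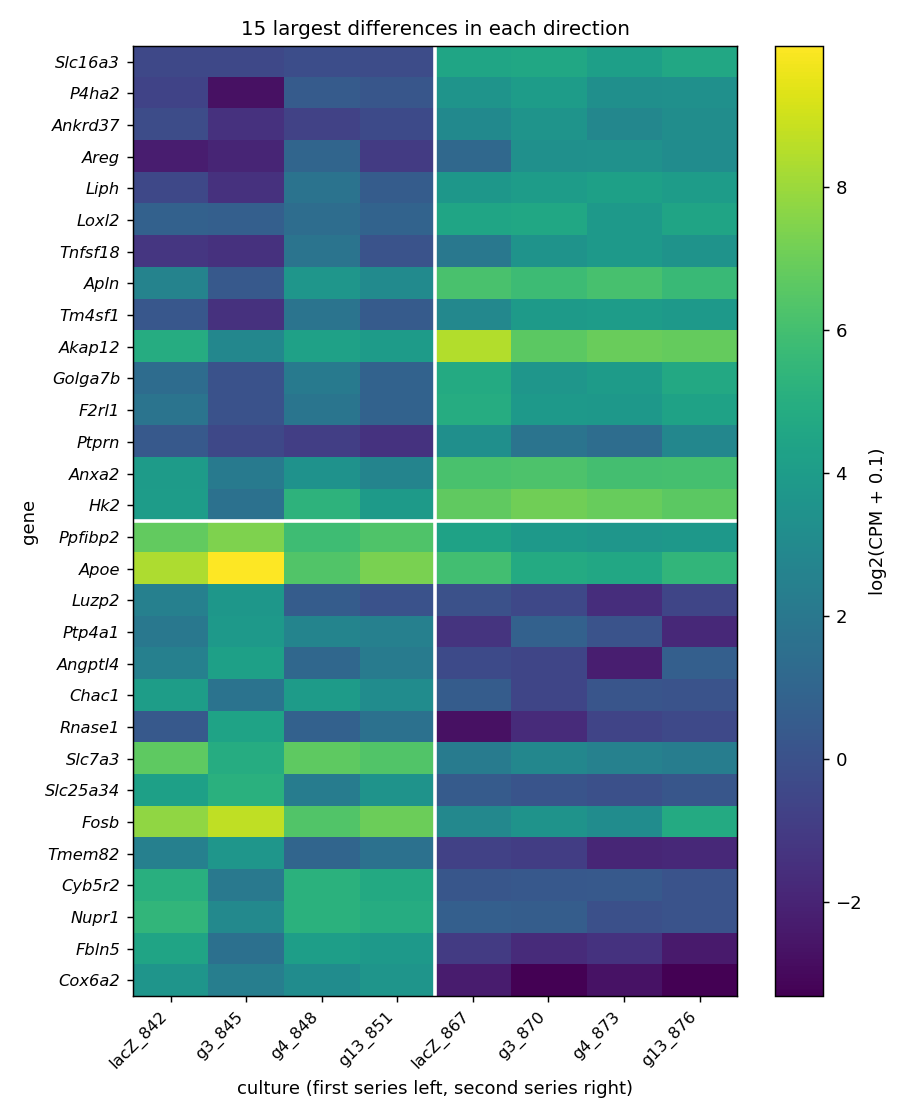
The 15 largest differences in each direction among genes that separate the series (rows, from most higher in the second series at the top to most lower at the bottom) in each of the 8 cultures (columns); colour is log2(CPM + 0.1). Slc16a3 at the top goes from 0.644 to 0.783 CPM in the first series to 18.1 to 25.3 CPM in the second series, and Apoe is brightest in g3_845 at 1010 CPM.

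Genes of the hypoxia response and glycolysis were higher in the second series as a group. Of 36 listed genes, all of which were tested, 30 were called higher and 1 lower, against 13% and 11.8% of all genes. In 29 members every library of the second series lay above the first series, against 15.6% of all genes. The median log2 fold change of the list was 1.29. Their summed level was 4706, 4340, 5125 and 5190 CPM in the first series and 10468, 10562, 9735 and 9919 CPM in the second series, a 2.10-fold difference of means. The groups were far apart, with no library between 5190 and 9735 CPM. Without the lacZ pair 27 members were called higher. With genotype in place of guide 30 were, and 31 when g3_845 was left out as well.

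Slc16a3, P4ha2 and Ankrd37 led, followed by Car9, a carbonic anhydrase of the cell surface (3.73, SE 0.508). Hk2, which commits glucose to glycolysis, was at 16.4, 3.01, 38 and 15.1 CPM and at 105, 135, 120 and 99.5 CPM (2.98, SE 0.533). Ndrg1, a stress-induced gene, was at 0.914, 3.06, 2.09 and 1.26 CPM and at 21.5, 18.5, 9.07 and 8.47 CPM (2.95, SE 0.366). Further members, chosen after their values were seen, were the glucose transporters Slc2a1 (2.63) and Slc2a3 (1.86), and Pdk1 (2.21), the kinase that closes pyruvate off from the mitochondrion. Ldha (1.90), Tpi1 (1.29), Pgk1 (1.28), Aldoa (1.08), Gapdh (0.86) and Pkm (0.84), enzymes of glycolysis and lactate formation, were all called higher and separated the series. Not every member moved. Vegfa, the vascular growth factor, was 0.53 (SE 0.30, adjusted p = 0.212, edgeR's quasi-likelihood test), and Aldoc, Ero1l, Car12 and Kdm3a also missed the test at 0.89, 0.35, 0.27 and -0.10. Mxi1, an antagonist of Myc, was the member called lower (-0.55, SE 0.159), with overlapping libraries.

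The promoters of Slc16a3 and P4ha2 are printed because these genes have the largest differences among called members whose window holds the motif searched. Both also lead the whole list. Each window runs from 250 bases before to 50 bases after the gene's start (RefSeq, GRCm38.p6), 5′ to 3′ on the gene's strand, and capitals mark the letters ACGTG, the core of the hypoxia response element. Slc16a3 lies at chr11:120948817-120949116 on the plus strand and P4ha2 at chr11:54100674-54100973 on the plus strand.
Slc16a3: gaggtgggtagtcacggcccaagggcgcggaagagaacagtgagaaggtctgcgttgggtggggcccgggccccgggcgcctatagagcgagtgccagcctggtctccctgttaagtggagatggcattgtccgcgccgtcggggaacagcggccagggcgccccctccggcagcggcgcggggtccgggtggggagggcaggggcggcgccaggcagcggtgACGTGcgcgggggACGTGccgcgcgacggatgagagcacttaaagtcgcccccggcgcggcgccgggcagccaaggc
P4ha2: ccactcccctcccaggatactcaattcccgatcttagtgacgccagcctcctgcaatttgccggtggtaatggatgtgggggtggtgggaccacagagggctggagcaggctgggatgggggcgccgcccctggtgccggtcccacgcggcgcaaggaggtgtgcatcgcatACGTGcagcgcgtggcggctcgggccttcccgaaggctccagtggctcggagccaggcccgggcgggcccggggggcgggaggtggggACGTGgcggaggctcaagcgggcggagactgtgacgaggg
Slc16a3 holds 2 matches, at -27 and -14 from the start, and P4ha2 holds 2, at -78 and 10. Searched on both strands, ACGTG stood in 26 of 47 promoters of the list (55.3%), against 6446 of 32841 promoters of all genes (19.6%). It stood in 28.1% of the promoters of the integrated stress response list and in 23.8% of those of the immediate early gene list. A match of 5 letters is a description of the sequence and was not tested as a site. The list was drawn up from genes induced by low oxygen and glycolytic enzymes, and all members were searched, called or not. The share thus describes how the list was made, not the difference between the series. It can lie inside other motifs.

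Cholesterol synthesis was higher in the second series at every step tested. All 24 tested members of the list, of 25 listed, were called higher, against 13% of all genes. In all 24 the 4 libraries of the second series lay above the 4 of the first series, against 15.6% of all genes. The median log2 fold change was 1.34, and the range was 0.54 to 2.12. The summed level was 2235, 1828, 2543 and 2302 CPM and then 5051, 5660, 5960 and 4855 CPM, a 2.42-fold difference of means. The count stayed at 24 without any one guide pair and without g3_845.

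Acat2, an enzyme near the start of the pathway, was at 64.7, 55.8, 69.6 and 64.3 CPM and at 207, 213, 229 and 208 CPM (1.75, SE 0.0996). Lss, which closes the sterol ring, was at 56.9, 39.5, 51.9 and 49.1 CPM and at 157, 154, 174 and 139 CPM (1.67, SE 0.117). Both series were narrow for these enzymes, and the lowest library of the second series lay above the highest of the first. Idi1, the isomerase of isoprenoid units, was at 48.2, 43.6, 84.1 and 58.6 CPM and at 189, 248, 257 and 120 CPM (1.78, SE 0.221). Fdps led at 2.12, but its reads may be divided with near-identical pseudogene copies and its value is uncertain. The smallest difference was in Srebf2 (0.54), the transcription factor that drives the pathway, a member named after its value was seen.

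Fatty acid and lipid genes followed in part. Of 21 tested, 10 were called higher and 3 lower. Scd1, the desaturase of fatty acids, was at 298, 153, 309 and 256 CPM and at 637, 650, 676 and 600 CPM (1.38, SE 0.181). Fasn (1.23), Acss2 (1.16) and Acly (0.98), which make fatty acids from acetate units, were also called higher. Among the 3 called lower, Abca1, which exports cholesterol, was at 93.6, 268, 33.8 and 61.1 CPM and at 27.0, 21.2, 14.5 and 21.3 CPM (-2.04, SE 0.376). Apoe, given above, was another.

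**Figure D2:**
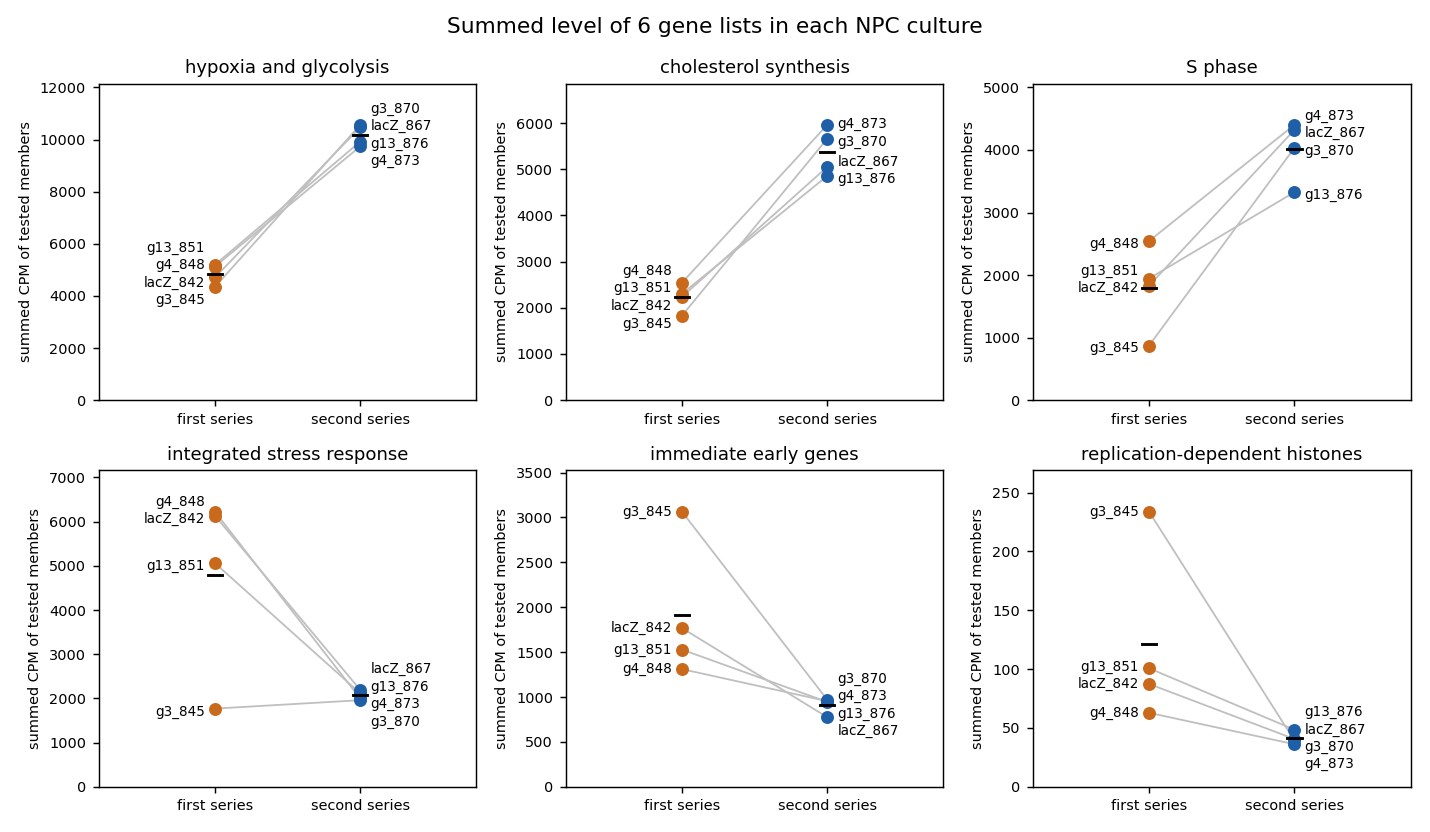
Summed CPM of the tested members of 6 gene lists in each culture, from 0 on each vertical axis; grey lines join the cultures with the same guide and black bars mark the mean of 4 cultures. Cholesterol synthesis goes from 1828 to 2543 CPM in the first series to 4855 to 5960 CPM in the second series, and g3_845 lies at 1770 CPM for the integrated stress response, at the level of the second series.

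S phase genes were higher in the second series, while most mitotic genes did not pass the test. Of 42 tested S phase genes 39 were called higher and none lower, with a median log2 fold change of 1.32. All 42 were higher in each of the 4 guide pairs, with pair medians of 1.29, 2.41, 0.81 and 0.78. The summed level was 1830, 871, 2544 and 1944 CPM and then 4319, 4031, 4401 and 3324 CPM. Library g3_845 was the lowest, and the groups did not overlap. The count was 12 without the lacZ pair, 30 without the g13 pair, 35 with genotype in place of guide and 39 when g3_845 was left out as well. The 3 members not called were Pola1 (0.91), Usp1 (0.84) and Casp8ap2 (0.58).

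Cdc6, which loads the replicative helicase, was at 6.94, 1.5, 15.8 and 10.6 CPM and at 44.0, 39.4, 44.1 and 34.1 CPM (2.47, SE 0.460). Without the lacZ pair it missed the threshold (adjusted p = 0.0545, edgeR's quasi-likelihood test). Ccne1 (2.00) and Ccne2 (1.93), the E cyclins of S phase entry, and Chaf1b (2.09), which assembles chromatin behind the fork, kept their calls without any one pair. Ccnd1, the D cyclin that growth factors induce in G1, was at 668, 207, 1694 and 971 CPM and at 2999.8, 2920, 3237 and 2889 CPM (2.09, SE 0.430). Its libraries of the second series lay within a narrow range above the whole first series, and it missed the threshold without the lacZ pair (adjusted p = 0.0633, edgeR's quasi-likelihood test). Mcm2, a helicase subunit, had a log2 fold change of 1.37 (SE 0.329), with g3_845 at 8.64 CPM and the others of its series at 40.5 to 52.5 CPM. Its call was lost without the lacZ pair (adjusted p = 0.0737) and without the g13 pair (0.0507, edgeR's quasi-likelihood test). Uhrf1 (1.81) and Dnmt1 (1.32), which copy DNA methylation behind the replication fork, were also called higher.

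Of 48 tested G2 and M phase genes, 12 were called higher and 1 lower, and the median was 0.28. The 12 became 3 without the lacZ pair, 5 without the g3 pair, 7 without the g13 pair, 8 without the block or with genotype in its place, and 4 without g3_845, where the median was 0.11. Tubb4b, a tubulin, was at 58.8, 66.2, 57.6 and 60.9 CPM and at 134, 121, 153 and 140 CPM (1.17, SE 0.114). The proliferation markers Mki67 and Top2a were not called (0.50, SE 0.239, and 0.29, SE 0.257), and for both the libraries overlapped. Of the cell cycle inhibitors among the named genes 3 were called higher and Cdkn1c, an imprinted one, lower (-1.35). The Cdkn1c call was lost without the lacZ, the g3 or the g13 pair (adjusted p = 0.137, 0.0578 and 0.0616, edgeR's quasi-likelihood test). It was also lost without the block and with DESeq2. Cdkn2a, which acts on p53 and the D cyclin kinases, was at 6.4, 5.15, 8.68 and 10.3 CPM and at 16.7, 12.5, 20.1 and 25.4 CPM (1.29, SE 0.127), Cdkn2b was at 1.18 and Cdkn1a, a target of p53, at 0.72. Of 29 tested p53 targets and genes of ageing cultures, 8 were called higher (5 without the lacZ pair) and 3 lower. Cdkn1a lost its call without the lacZ pair.

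Receptor tyrosine kinase and ERK genes moved in both directions, with 11 of 29 tested called higher (6 without the lacZ pair) and 4 lower. Ligands were among those higher, with Areg at 3.88, Lif at 2.75 (0.538, 0.376, 2.48 and 1.21 CPM, then 4.67, 5.91, 8.38 and 8.47 CPM) and Hbegf at 1.49. Myc was at 16.6, 9.02, 27.7 and 23.4 CPM and at 45.8, 49.1, 51.8 and 45.7 CPM (1.43, SE 0.247). Dusp5, a phosphatase of nuclear ERK, was lower, at 21.6, 63.8, 23.5 and 26.1 CPM and then 7.60, 9.26, 9.12 and 8.37 CPM (-1.83, SE 0.241). Egfr, the receptor for the EGF of the medium, was lower as well, at 750, 735, 752 and 860 CPM and then 405, 485, 473 and 421 CPM (-0.80, SE 0.118).

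Genes of the integrated stress response and amino acid supply were lower in the second series in 3 of the 4 guide pairs. Of 30 tested, 20 were called lower and 1 higher, with a median of -1.31. The pair medians were -1.76 (lacZ), -0.03 (g3), -1.93 (g4) and -1.41 (g13), against medians of all genes between -0.03 and 0.01. The summed level was 6136, 1770, 6224 and 5060 CPM in the first series and 2194, 1960, 2001 and 2118 CPM in the second series. Library g3_845 was thus below every library of the second series, and the groups overlapped. The count was 11 without the lacZ pair, 11 without the g13 pair, 15 without the g4 pair, 27 without the g3 pair, 21 with genotype in place of guide and 27 when g3_845 was left out as well. In the g3 pair 14 members were higher and 16 lower in g3_870 than in g3_845.

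Of the 20 members called lower, 12 separated the series with g3_845 included, Nupr1 (given above) with the largest difference. Over all genes tested, 15.6% separated the series in that direction. Slc7a3, a transporter of cationic amino acids, was at 102, 29.7, 103 and 83.7 CPM and at 4.52, 6.97, 5.62 and 4.91 CPM (-3.72, SE 0.391). Chac1, which breaks down glutathione, was at 16.7, 3.27, 15.9 and 8.73 CPM and at 1.34, 0.585, 1.03 and 0.962 CPM (-3.40, SE 0.263). Aldh1l2, an enzyme of mitochondrial folate metabolism, was at 420, 219, 375 and 372 CPM and at 57.8, 57.0, 46.9 and 52.7 CPM (-2.66, SE 0.188). Atf4 itself (-1.08), Ddit3 (-1.39), Atf5 (-2.60) and Slc3a2 (-1.94), the shared chain of several amino acid transporters, were called lower and did not overlap, and were chosen after their values were seen. Trib3, a pseudokinase that restrains the response, behaved differently. It was at 22.1, 0.537, 26 and 13.1 CPM and at 0.596, 1.17, 1.03 and 0.962 CPM, so that g3_845 lay below all of the second series. Its call (-3.54, SE 0.861, adjusted p = 0.0199) was lost without the lacZ pair (0.121), the g4 pair (0.0728) or the g13 pair (0.0874, edgeR's quasi-likelihood test). Cth, of the transsulfuration pathway, also had g3_845 below all of the second series, with a log2 fold change of -2.71. Its call was lost without the lacZ, the g4 or the g13 pair (adjusted p = 0.178, 0.118 and 0.134, edgeR's quasi-likelihood test). Slc7a11, the cystine importer, was lower in all 4 pairs (-1.86, SE 0.370) and lost its call without the lacZ or the g13 pair (adjusted p = 0.0642 and 0.0585, edgeR's quasi-likelihood test). Ddit4, an inhibitor of mTOR that belongs to both this list and the hypoxia list, was the member called higher (1.01, SE 0.191).

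The promoters of Nupr1 and Trib3 are shown because these genes have the largest differences among called members whose window holds the motif searched. Nupr1 separated the series and Trib3 did not. Capitals mark the C/EBP-ATF response element, searched as TGATGNAA on both strands, here found on the reverse strand. Nupr1 lies at chr7:126625421-126625720 and Trib3 at chr2:152344011-152344310, both on the minus strand (RefSeq, GRCm38.p6), with the windows as above.
Nupr1: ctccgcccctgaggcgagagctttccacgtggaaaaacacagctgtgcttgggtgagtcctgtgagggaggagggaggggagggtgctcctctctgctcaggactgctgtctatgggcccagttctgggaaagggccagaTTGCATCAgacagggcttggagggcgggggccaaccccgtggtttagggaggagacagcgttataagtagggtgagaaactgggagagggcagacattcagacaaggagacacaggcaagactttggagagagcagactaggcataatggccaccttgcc
Trib3: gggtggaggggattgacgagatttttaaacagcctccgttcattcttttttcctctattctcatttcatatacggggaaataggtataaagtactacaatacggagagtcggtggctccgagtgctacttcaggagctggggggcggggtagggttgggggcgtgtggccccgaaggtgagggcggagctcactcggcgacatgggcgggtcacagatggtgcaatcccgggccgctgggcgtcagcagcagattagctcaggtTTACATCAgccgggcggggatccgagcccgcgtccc
The match lies at -110 in Nupr1 and at 14 in Trib3. Of 32 promoters of the list 9 held the motif (28.1%), against 1303 of 32841 of all genes (3.97%), none of the 47 hypoxia promoters and 4.76% of the immediate early promoters. The list was drawn up from targets of ATF4 and genes of amino acid supply, and all members were searched, called or not. The share thus describes how the list was made, not the difference between the series.

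**Figure D3:**
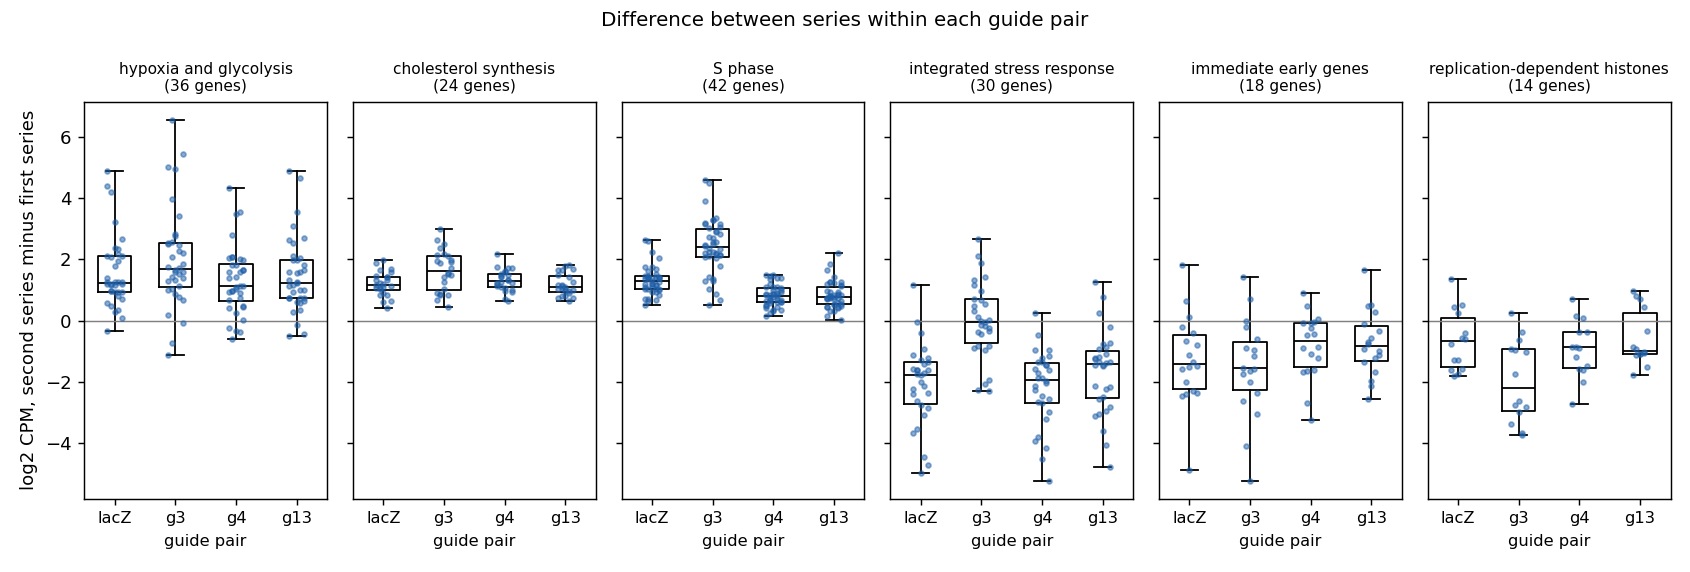
Difference in log2 CPM (second series minus first series) of each tested member of 6 gene lists within each guide pair; points are genes, boxes span the quartiles with the median as a line, and whiskers reach the lowest and highest gene. The median of the integrated stress response list is -0.03 in the g3 pair and -1.41 to -1.93 in the others, while all 42 S phase genes are above 0 in every pair.

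Immediate early genes were lower in the second series. Of 18 tested, 12 were called lower and 1 higher, and the median was -1.30. The pair medians were -1.42, -1.56, -0.67 and -0.84. The summed level was 1769, 3065, 1311 and 1529 CPM and then 776, 971, 955 and 946 CPM, with g3_845 the highest library and no overlap. The count was 8 without the lacZ pair and 12 without g3_845.

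Fos was at 394, 722, 164 and 267 CPM and at 76.2, 86.5, 70.8 and 123 CPM (-1.94, SE 0.327). Nr4a1, a nuclear receptor induced by activity and growth factors, was at 47.8, 94.8, 18.5 and 30.5 CPM and at 9.00, 5.43, 5.85 and 5.10 CPM (-2.70, SE 0.361). Klf4, a zinc finger factor, was at 42.2, 26.6, 44.5 and 26.6 CPM and at 8.4, 12, 14.5 and 8.18 CPM (-1.70, SE 0.190), here without g3_845 on top. Egr3 (-1.64) and Ccn2 (-2.01), a matricellular protein, were also called lower. The AP-1 partners did not move together. Jun was not called (0.35, SE 0.150, adjusted p = 0.113, edgeR's quasi-likelihood test), nor were Junb, Dusp1, Btg2 and Klf6 (-0.30, -0.43, -0.47 and 0.31). Fosl2, a late AP-1 member, was the one called higher, at 13.3 ± 2.97 and 36.3 ± 2.55 CPM (SD, n = 4 each, 1.46, SE 0.165).

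The promoter of Zfp36, which encodes an RNA-binding protein that shortens the life of cytokine transcripts, is shown as a called member (-1.44) whose window holds a CArG box, the serum response factor motif, in capitals. It lies at chr7:28379179-28379478 on the minus strand (RefSeq, GRCm38.p6).
Zfp36: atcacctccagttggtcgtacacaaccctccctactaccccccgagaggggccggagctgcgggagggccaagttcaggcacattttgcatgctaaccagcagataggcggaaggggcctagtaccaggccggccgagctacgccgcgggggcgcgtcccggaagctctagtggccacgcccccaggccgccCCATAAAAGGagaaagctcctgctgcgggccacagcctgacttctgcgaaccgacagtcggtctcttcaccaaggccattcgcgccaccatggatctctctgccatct
The match lies at -58. A CArG box stood in 5 of 21 promoters of the list (23.8%), against 535 of 32841 of all genes (1.63%), 2.13% of the hypoxia promoters and none of the integrated stress response promoters. This list too was drawn up from genes induced within minutes of a stimulus, with earlier results of these data known. All its members were searched. The share does not describe the difference between the series.

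Replication-dependent histone transcripts, most of which have no poly(A) tail and enter a poly(A) library in small part, could be tested only in part. Of 70 listed genes 14 passed the filter on low counts, 7 were called lower and none higher. Hist1h4i was above the first series in every library of the second but was not called (0.87, SE 0.283, adjusted p = 0.0506, edgeR's quasi-likelihood test). Such a filter keeps a gene that is high in one series, and these copies are near identical, so single values are uncertain. The summed level was 87.4, 234, 62.9 and 101 CPM and then 40.7, 39.5, 36.2 and 48.6 CPM. The linker histone gene Hist1h1c made up the largest part, at 35.6, 127, 20.6 and 47.1 CPM and then 11.5, 12.2, 11.4 and 13.7 CPM (-1.92, SE 0.364). Without the lacZ pair 3 members were called, and without g3_845 7 were.

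Among progenitor identity genes, intermediate filaments were higher in the second series and several transcription factors and receptors lower. Of 32 tested, 8 were called lower (3 without the lacZ pair) and 2 higher, with a median of -0.29. Nes, nestin, was at 529, 260, 782 and 609 CPM and at 1469, 1344, 1584 and 1077 CPM (1.41, SE 0.246), and Vim, vimentin, was at 606, 588, 822.4 and 601 CPM and at 1214, 1469.9, 1592 and 1535 CPM (1.16, SE 0.124). Among those lower, Pax6, a transcription factor of dorsal radial glia, was at 48.5, 53.8, 41.2 and 44.4 CPM and at 29.0, 29.3, 27.4 and 25.6 CPM (-0.75, SE 0.102). Hes5, the main target of Notch in progenitors, was at 21.9, 33.6, 4.24 and 9.88 CPM and at 7.55, 2.39, 1.89 and 6.54 CPM (-1.77, SE 0.480). Its libraries overlapped between the series, and its call was lost without the lacZ pair (adjusted p = 0.105, edgeR's quasi-likelihood test). Sox2 was lower in all 4 pairs but just inside the limit on size (-0.50, SE 0.110, adjusted p = 0.0144, edgeR's quasi-likelihood test), so that it was not called. Fabp7 (0.25) and Olig2 (0.33) were not called.

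Most called Notch genes were lower, with 7 of 22 lower (1 without the lacZ pair and 3 without the g13 pair) and 1 higher. Dll1, a Notch ligand, was at 65.7, 159, 43.0 and 74.9 CPM and at 36.2, 21.8, 26.9 and 28.4 CPM (-1.43, SE 0.337), and Dll4, Notch1 and Hey1 were at -2.0, -0.73 and -0.68. Lfng, a glycosyltransferase that tunes Notch receptors, was higher (0.77). The calls of Dll1, Dll4, Notch1 and Hey1 were lost without the lacZ pair. Of 10 Hedgehog genes 4 were lower (0 without the lacZ pair and 1 without the g4 or the g13 pair) and 1 higher, with the receptor Ptch1 at -0.59. Of 25 Wnt genes 4 were higher and 3 lower (2 and 1 without the lacZ pair). These are 16% and 12%, near the 13% and 11.8% of all genes. Of 25 BMP and TGF-beta genes 5 were higher (20%) and 2 lower (8%), or 3 and 1 without the lacZ pair. Id3 and Id4, inhibitors of basic helix-loop-helix factors, went opposite ways at 1.30 and -1.64.

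Glial genes were lower more often than higher. Of 28 genes of astrocytes and maturing radial glia, 11 were called lower and 5 higher, and of 17 oligodendrocyte lineage genes 6 were lower and 1 higher. Without the lacZ pair the counts of lower calls were 4 and 2, and the oligodendrocyte count was 3 without the block and 3 without g3_845. Slc1a2, a glutamate transporter of astrocytes, was at 280, 454, 189 and 269 CPM and at 94.5, 93.3, 65.7 and 54.2 CPM (-1.92, SE 0.170). Sox8, a factor of the glial lineages, was at 243, 329, 169 and 252 CPM and at 114, 107, 93.5 and 101 CPM (-1.22, SE 0.140). Both separated the series and kept their calls without any one pair. Aqp4, the astrocyte water channel, and Ndrg2 were higher in g3_845 (73.9 and 523 CPM) than in the others of its series (9.98 to 24.0 and 37.0 to 124 CPM). Their calls (-1.60 and -1.74) were lost without the lacZ pair, and that of Ndrg2 also without the g13 pair. Gfap, the astrocyte filament, had 22 to 106 reads per library and was not called (0.58). Hopx, a marker of outer radial glia, went the other way, at 2.63, 4.56, 5.02 and 3.22 CPM and then 15.0, 23.7, 24.7 and 23.6 CPM (2.51, SE 0.156).

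Genes of new neurons were sparse. Of 32 listed, 18 were tested, 5 were called lower (3 without the lacZ or the g13 pair) and 2 higher (0 without either). Dcx, a microtubule protein of migrating neurons, was at 25.1, 24.7, 11.8 and 21.8 CPM and at 8.80, 6.17, 2.93 and 3.75 CPM (-1.99, SE 0.186). Gap43, a growth cone protein, was higher, at 199, 39.1, 497 and 325 CPM and then 633, 737, 704 and 830 CPM (1.85, SE 0.545), and lost its call without the lacZ pair, without the g13 pair and without the block. Of 45 clustered protocadherins, surface isoforms that share long stretches of sequence, 15 were lower and 2 higher. The 15 became 6 without the block, 9 without the lacZ pair, 5 without the g4 pair, 2 without the g13 pair and 9 without g3_845.

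Matrix and adhesion genes were called on both sides, with 14 of 44 higher (7 without the lacZ pair) and 7 lower (2 without the lacZ pair and 3 without the g13 pair). Timp1, an inhibitor of matrix proteases, was at 3.23, 2.31, 6.33 and 3.28 CPM and at 15.0, 19.6, 17.2 and 23.1 CPM (2.37, SE 0.275). Col18a1, a basement membrane collagen, was at 7.96, 5.05, 28.1 and 16.7 CPM and at 41.8, 50.1, 49.8 and 80.8 CPM (2.17, SE 0.352). Markers of other cell types were few. Of 13 listed genes of fibroblasts and pericytes 4 were tested and 2 called higher. Acta2, smooth muscle actin, was at 0.269, 0.161, 0.131 and 0.172 CPM and at 4.97, 3.62, 3.73 and 5.87 CPM (4.56, SE 0.285). Col1a1 had 2, 0, 2 and 2 reads and then 9, 9, 7 and 7 reads, Col3a1 at most 2 and Dcn at most 1. The summed level of the tested fibroblast and pericyte markers was 55.7 to 102 CPM in the first series and 57.4 to 104 CPM in the second series. Of 12 microglial genes 2 were tested and 1 was called lower, and none of 3 tested endothelial genes was called. The summed level of the 2 tested microglial genes was 43.1 to 64.6 CPM in the first series and 25.2 to 30.5 CPM in the second series. The part of such cells in the differences was not tested.

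**Figure D4:**
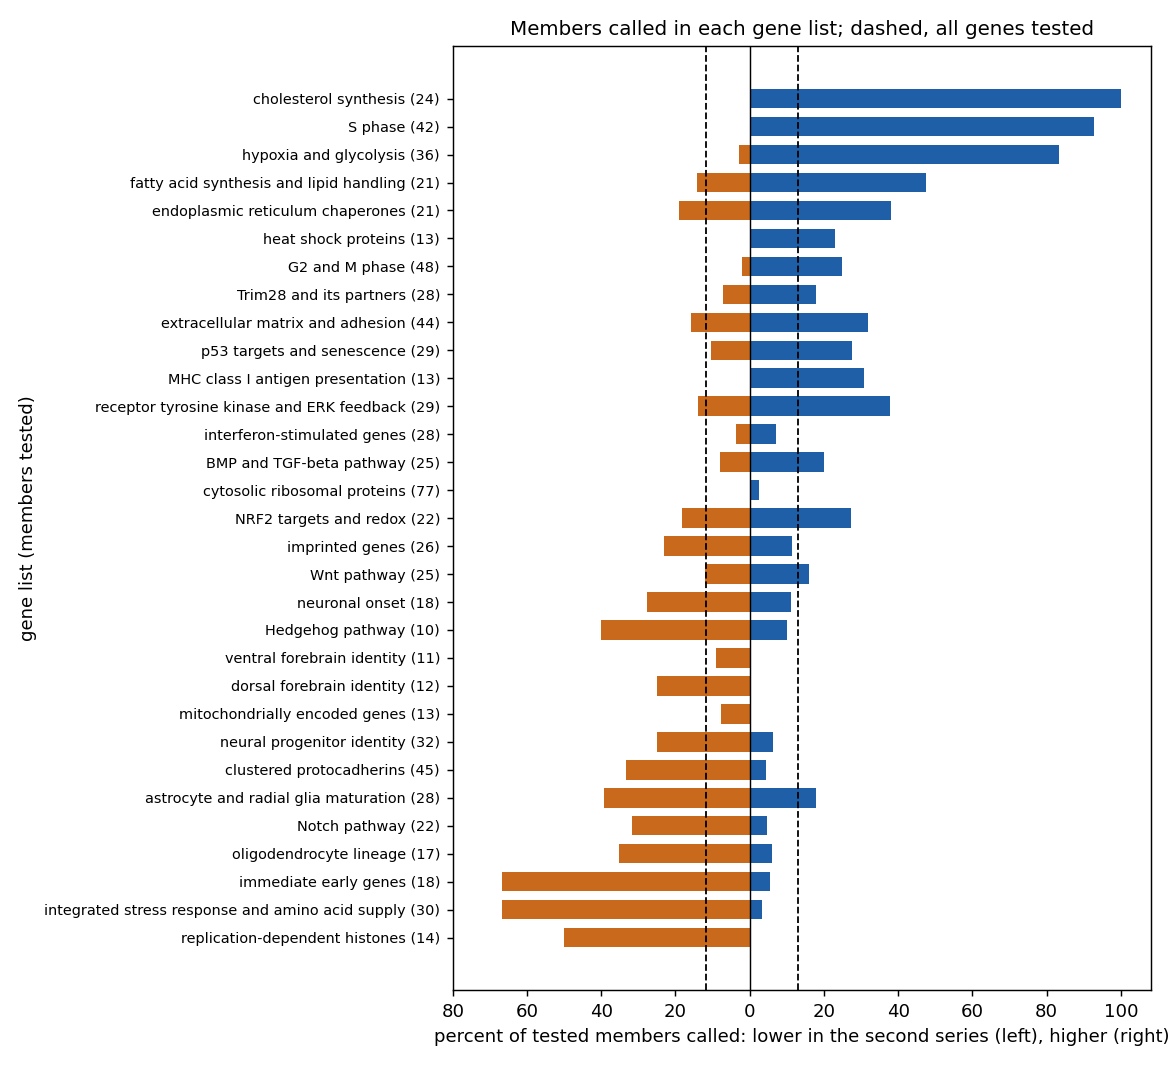
Percent of the tested members of each gene list that were called higher (right) or lower (left) in the second series, for lists with at least 10 tested members, whose number is in parentheses; dashed lines mark the 13% and 11.8% of all genes tested. Cholesterol synthesis reaches 100% and S phase 92.9% on the right, and the lists at the bottom reach 50 to 66.7% on the left.

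Of 77 cytosolic ribosomal protein genes 2 were called higher (8 without the g3 pair), 1 of them Rps10, whose reads may be divided with near-identical copies. Of 13 mitochondrially encoded genes 1 was lower, mt-Co1 (-0.60), and its call was lost without the lacZ, the g4 or the g13 pair and without g3_845. Of 28 interferon-stimulated genes 2 were higher and 1 lower, and of 13 genes of MHC class I presentation 4 were higher, among them H2-K1 (0.63) and H2-Q4 (0.59), which share sequence with their relatives. The 4 became 1 without the lacZ pair, 1 without the g4 pair and 0 without the g13 pair. Heat shock proteins had 3 of 13 higher, with Hsp90aa1 at 0.83, and chaperones of the endoplasmic reticulum 8 of 21 higher and 4 lower. The 3 heat shock calls became 0 without the lacZ pair and 1 without g3_845, and the 8 chaperone calls 3 without the lacZ pair, 4 without the g3 pair, 5 without the g13 pair and 4 without g3_845. Among the chaperones Calr (0.78) and Sdf2l1 (1.53) were higher, and Herpud1 (-1.59) and Dnajb9 (-1.09) lower. Of 22 NRF2 targets 6 were higher and 4 lower, where the 6 became 2 without the lacZ pair, 3 without the g13 pair and 3 without g3_845.

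Xist, the RNA of the inactive X chromosome, was at 3619, 3962, 3602 and 4412 CPM and at 2350, 2650, 2037 and 2019 CPM (-0.79, SE 0.139). The Y-linked genes Ddx3y, Uty, Kdm5d and Eif2s3y had no read in any of the 8 libraries. Of 26 imprinted genes 3 were higher (11.5%) and 6 lower (23.1%), against 13% and 11.8% of all genes. The 6 became 2 without the lacZ pair and 3 without the g3 or the g13 pair. H19, a maternally expressed RNA, was at 2.80, 1.18, 0.979 and 0.977 CPM and at 11.6, 4.95, 2.81 and 9.05 CPM (2.22, SE 0.280), and Zim1 was lower (-1.26). Of 4 tested genes known to vary between mouse strains none was called. Medians by chromosome ran from -0.117 (chromosome 18) to 0.082 (chromosome 11) on the log2 scale, leaving out the single tested gene of chromosome Y. Of 28 genes of the Trim28 silencing machinery, including Uhrf1 and Dnmt1, 5 were higher (17.9%) and 2 lower (7.14%), against 13% and 11.8% of all genes. The 5 became 2 without the lacZ pair, 3 without any other pair and 3 without g3_845.

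Whether a gene differed between the series by a different amount in control and knockout cultures was asked with an interaction term. No gene was called (0% of 15627, edgeR's quasi-likelihood test), 93 had an unadjusted p under 0.05, and DESeq2 called 0. Each series holds 1 control culture, so this test rests on 2 control libraries.

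Transposable element (TE) subfamilies were counted from reads that also map to more than 1 place. On their own library sizes, 43 of 763 tested subfamilies were higher in the second series (5.64%) and 13 lower (1.7%), with 200 at an unadjusted p under 0.05 (edgeR's quasi-likelihood test). Of the 43, 32 were LTR elements, the class of endogenous retroviruses, of which 451 were tested. The split depends on the scale. On gene library sizes the median of all subfamilies was -0.35, and 23 subfamilies were higher and 186 lower, so that the share of calls that were higher went from 76.8% to 11%. Values below are relative to all TE reads.

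RLTR19-int, an internal part of ERVK elements, was at 10615, 3903, 12607 and 9046 CPM on the total of TE counts (TE CPM) and at 22302, 19211, 21704 and 20826 (1.33, SE 0.198). B2_Mm1a, a young short interspersed element, was at 13379, 11301, 19298 and 16078 and at 29940, 28527, 36511 and 95691 (1.49, SE 0.220), with g13_876, the library with the fewest reads, far above the rest. RLTR30D_RN (1.33) and RLTR46A2 (1.96) also separated the series, and both lost their calls without the lacZ pair. IAPLTR3-int, the largest difference (2.16, SE 0.282), did not separate them. It was at 13.8 and 7.84 TE CPM in lacZ_842 and lacZ_867, which are 9 and 5 reads. In the knockout cultures it was at 65.6, 91.7 and 58.5 in the first series and at 371, 410 and 295 in the second series. Its call was lost without the block and with DESeq2. The subfamilies with the largest differences in the other direction, L1M3f (-1.87), LTR16B2, HERVL40-int, RLTR48B and L1MEh, had between 2 and 57 reads per library. Of these, L1M3f kept its call without any one pair.

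**Figure D5:**
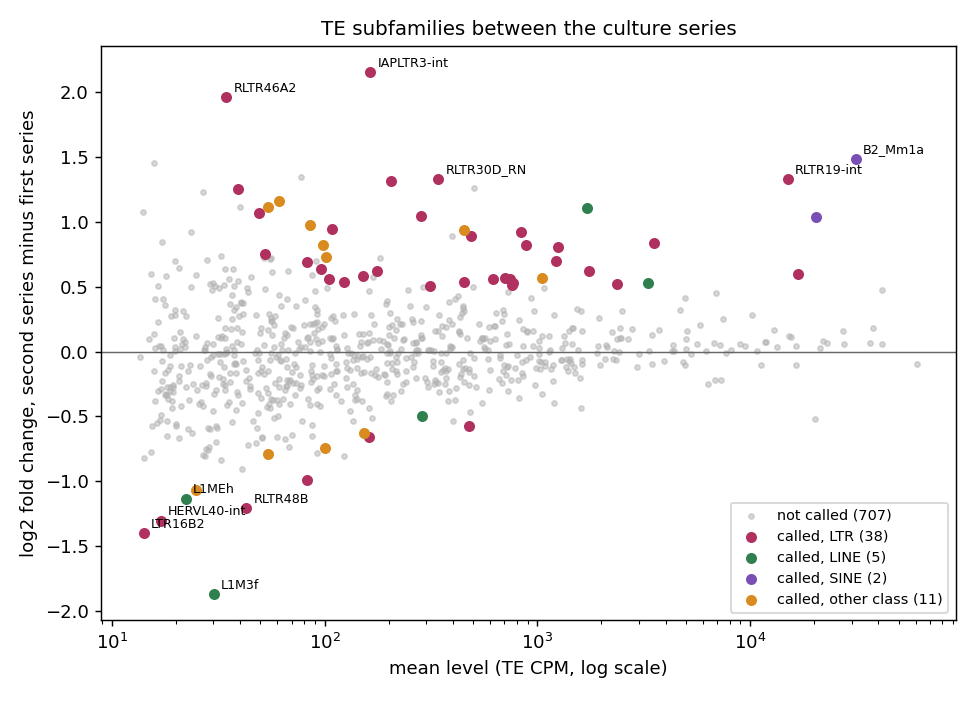
Log2 fold change of each TE subfamily (second series minus first series) against its mean level in TE CPM on a log axis; coloured points are the called subfamilies by class and grey points the others. Among the called points above 0 most are LTR elements (32 of 43), and B2_Mm1a lies at the highest mean level of these 43.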

How the data were processed

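RNA was extracted from sorted NPCs and sequenced as stranded poly(A) libraries. Per their processing notes the authors used STAR (2.6.0) with GRCm38.p6, and they deposited counts of uniquely mapped reads per GENCODE gene, made with featureCounts (Subread 1.6.3) on the reverse strand, and a TEtranscripts table of gene and TE counts in which reads with several mapping places are shared. The gene table holds 55298 genes, of which 54495 matched GENCODE vM21. The TE table holds 1153 subfamilies. A further 24 per-sample columns were not used here.

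Counts were fitted with edgeR (4.0.16, with limma 3.58.1, in R 4.3.3) as guide plus series, which leaves 3 residual degrees of freedom, after filterByExpr by series and TMM scaling, with Benjamini-Hochberg adjustment over all genes. A gene was called where the adjusted p was below 0.05 with a size beyond 0.5 on the log2 scale, always second minus first series. TE subfamilies were fitted in the same way on their own totals. Fold changes are fitted values, CPM are per TMM-scaled library, and fits were tested on simulated data. Where several identifiers share a symbol, the one with most reads was used. The 38 gene lists, the libraries and the tests were chosen with earlier results of these data known. Named genes were the 15 largest log2 fold changes in each direction among called genes that separate the series, with a mean of at least 5 CPM in the higher series and without predicted genes and pseudogenes, up to 6 called members per list with defining members, and 5 TE subfamilies per direction. A few genes that this rule picks are not reported here. The guide pairs the series by design. The correlation of same-guide deviations from the series means was 0.632 (lacZ), 0.056 (g3), 0.347 (g4) and 0.128 (g13). No 2 libraries agreed within sampling noise (chi-square per degree of freedom at least 7.82). Alternatives were the fit without the block or with genotype in its place, RLE and upper-quartile factors, DESeq2 (1.42.0), no filter, each guide pair left out, g3_845 left out with genotype in place of guide, libraries thinned to 9996885 reads, the TEtranscripts gene counts and, for TEs, gene library sizes. Motifs were searched only for lists with a promoter for at least 80% of members, which leaves out cholesterol synthesis (68%) and S phase (74.4%).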

Additional observations from a re-analysis of the deposited data

Results flagged for a closer look

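Within each series of 4 libraries, a value was picked out where the highest or lowest library lay far from the other 3, by Dixon's ratio past its 95% limit for 4 values. This happened for 30 of 484 values, and chance alone gives about 1 in 20. Of the 30, 10 were in g3_845, 8 in lacZ_867, 7 in g13_876, 2 in g13_851, 2 in g4_848 and 1 in g3_870.

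In g3_845 the low values were Cyb5r2 at 4.03 CPM (others of its series 27.4 to 36.1), Slc7a3 at 29.7 (83.7 to 103), the mitotic genes Aurkb at 10.0 (28.2 to 32.8) and Birc5 at 16.7 (38.6 to 40.7), and Mcm2 at 8.64 (40.5 to 52.5). Uhrf1 was at 17.9 CPM (55.8 to 66.8) and Olig2 at 287 (487 to 519). The summed integrated stress response list was at 1770 CPM (5060 to 6224). High values were Hist1h2be at 7.19 CPM (2.15 to 2.63) and LTR16B2 at 26.2 TE CPM (17.5 to 18.3).

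In lacZ_867, the control culture of its series, the low values were Areg at 2.19 CPM (8.66 to 10.6), Tnfsf18 at 3.98 (11.3 to 13.9), Tm4sf1 at 7.41 (14.8 to 16.2), Hopx at 15.0 (23.6 to 24.7) and Pcdhga8 at 1.54 (6.17 to 6.77). The summed immediate early list was at 776 CPM (946 to 971), IAPLTR3-int at 7.84 TE CPM (295 to 410), and Lama4, a laminin chain, was high at 8.95 CPM (2.98 to 3.56).

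In g13_876 the high values were Psmb9 at 10.2 CPM (4.53 to 5.07), Herpud1 at 9.05 (8.05 to 8.21), the summed MHC class I list at 296 (223 to 226) and the summed p53 list at 3522 (3360 to 3386). The low values were Suv39h2 at 19.9 CPM (29.0 to 30.9), Top2a at 367 (522 to 556) and HERVL40-int at 5.61 TE CPM (10.3 to 11.1). Elsewhere Vim was high in g4_848 at 822.4 CPM (588 to 606) and Pcdhb3 low there at 2.41 (3.28 to 3.44), Egfr was high in g13_851 at 860 (735 to 752) and Herpud1 low there at 18.9 (27.0 to 28.1), and Fasn was low in g3_870 at 168 (220 to 225).

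IAPLTR3-int had differences of opposite sign between the series in the control pair and the knockout pairs. It had 9 reads in lacZ_842 and 5 in lacZ_867, against 48 to 267 in the knockout cultures, so the sign in the control pair rests on few reads. The log2 difference was -0.63 in the lacZ pair and 2.12 to 2.45 in the 3 knockout pairs. The difference was not tested, and the lacZ pair is a single pair.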

How the results depend on the processing

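Without the replicate block 3447 genes were called, with genotype in place of guide 3556, with RLE factors 3871, with upper-quartile factors 3859, with DESeq2 3962, without the filter 4588, on thinned libraries 3439, on TEtranscripts counts 3713 and without g3_845 (with genotype in place of guide) 3484, against 3867. Of the 3867 calls, 3314 were called again in the same direction without the block, and on TEtranscripts counts 27 had the opposite sign. Leaving out 1 guide pair each time gave 1611 to 3886 calls, 860 to 2103 of them higher and 751 to 1783 lower, with the lowest counts without the lacZ pair, 12 to 39 for S phase, 11 to 27 for the integrated stress response and 3 to 8 for histones, where the lack of a filter gave 14. All 4 of these fits hold the same number of libraries, fewer than the main fit. They gave 1611 calls without the lacZ pair, 3886 without g3, 3165 without g4 and 2309 without g13. The cause of this spread was not tested. Of 181 named genes called, 103 kept the call in all 4 of these fits, 149 under all other alternatives and 101 under all. The Top2a log2 fold change ranged from -0.06 (without the g3 pair) to 0.49, and the Rps10 log2 fold change was -0.11 on TEtranscripts counts, which share reads among copies. TE calls were 29 (24 higher, 5 lower) without the block, 209 (23 and 186) on gene library sizes, 7 lower with DESeq2 and 17 to 41 (16 to 33 and 1 to 8) with a pair left out. Chromosome medians ranged with a pair left out from -0.071 to -0.065 (chromosome 1), -0.012 to 0.015 (10), -0.080 to -0.038 (12) and -0.062 to -0.022 (14), and chromosome 13 was at -0.056 over genes of at least 10 CPM. The interaction stayed at 0 in the fits that could be made. The shallowest library limits what can be seen of genes near 1 CPM.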
